A study of Mus musculus with 12 samples.

Results

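Basophils and mast cells share a small set of genes for granule enzymes, for the receptor that binds IgE, for histamine synthesis and for the receptor of IL-33. Here 8 such genes, of the 53465 in the deposited table, were followed in LSKs (Lin- Sca-1+ c-Kit+ bone marrow cells, the sorted fraction that holds the hematopoietic stem cells). They were chosen by name and not by a threshold on their values, though with earlier results of these data known: Cpa3, Mcpt8 and Prss34 for granule proteases, Fcer1a, Ms4a2 and Fcer1g for the chains of the IgE receptor, Hdc for the enzyme that makes histamine, and Il1rl1 for the IL-33 receptor. On day 9 of recovery from 5-fluorouracil (5-FU), 7 of the 8 were higher in Tespa1-/- than in Tespa1+/+ LSKs, where 3.95% of all genes tested were. Prss34 was 44.6-fold higher and Mcpt8 5.05-fold higher. Of the 7, Fcer1a and Prss34 passed the filter on low counts only with the Tespa1-/- libraries, and Fcer1a had to differ for that reason. In untreated LSKs Il1rl1 was the 1 member that passed the test, where 0.973% of all genes were called higher.

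The libraries came from LSKs of Tespa1-/- mice and of Tespa1+/+ mice, which the labels call littermates, either untreated or taken at day 9 after an injection of 5-FU, a drug that kills cycling cells, with 3 libraries in each of the 4 groups. The knockout allele (B6.129S-Tespa1tm1Smoc) had been crossed to C57BL/6 for over 6 generations, and the mice were male and 8 to 10 weeks old. The knockout is not limited to 1 cell type, so the basophils, mast cells and their precursors of Tespa1-/- mice carried it too. Each library is labelled as a separate replicate, but the labels do not say how many mice went into one, so the p-values below measure the spread between these libraries, which may be partly technical.

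The libraries held 22118154 to 28275079 reads on genes, and 3 counts, the level taken as the detection limit, equal 0.109 to 0.136 CPM (counts scaled to library size with TMM factors) and cover counting error only. Reads of Tespa1 were reduced and not absent in Tespa1-/- libraries, at 34.5 to 34.9 CPM against 43.1 to 51 untreated and at 17.2 to 20.7 against 47.1 to 57.2 CPM after 5-FU. The defining LSK genes Kit and Ly6a, which encode c-Kit and Sca-1, were detected in all 12 libraries, at 327 to 473 and 10.5 to 45.1 CPM. The 3 Tespa1-/- libraries after 5-FU stood apart from the rest by genes of maturing cells. The summed level of 10 neutrophil genes was 1010 to 1020 CPM there and 9.12 to 13.3 CPM in Tespa1+/+ after 5-FU. These 3 libraries are the whole group, so no comparison of genotypes after 5-FU can be made without them. In bulk libraries of sorted cells, more cells of a type and more RNA per cell cannot be told apart.

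Basophils and mast cells arise in the bone marrow from granulocyte and mast cell progenitors, and the GATA factors GATA1 and GATA2 are known regulators of both lineages. Basophils leave the marrow as mature cells, whereas mast cell precursors complete their maturation in tissues, where they fill their granules with chymases, tryptases and the carboxypeptidase encoded by Cpa3. On both cell types IgE is held by a receptor of an alpha chain that binds the antibody, a beta chain that amplifies the signal and gamma chains that carry it into the cell, and crosslinking of bound IgE releases histamine.

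For 6 of the genes on which the comparisons turn, the DNA around the start of transcription is shown because all 6 printed were called higher in Tespa1-/- LSKs after 5-FU and because words bound by GATA factors are common near genes of these lineages. RefSeq (GRCm38.p6) gave 9 promoter windows for the 8 genes, each from 250 bases before to 50 bases after a start, and 6 of them are printed 5′ to 3′ on the strand of the gene. Capitals mark 6-base GATA words on either strand, and a word on the other strand appears as its reverse complement. The words searched were AGATAA and its form with a T at the front, which is TGATAA, and both of these with a G at the end, which are AGATAG for the former and, for the latter, TGATAG.
Prss34 (chr17:25298144-25298443, + strand): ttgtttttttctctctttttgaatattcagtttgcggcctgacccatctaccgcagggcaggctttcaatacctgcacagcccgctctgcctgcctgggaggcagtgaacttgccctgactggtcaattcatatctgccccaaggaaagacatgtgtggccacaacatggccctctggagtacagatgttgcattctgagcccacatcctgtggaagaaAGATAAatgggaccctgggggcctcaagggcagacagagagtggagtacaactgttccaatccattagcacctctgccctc
Mcpt8 (chr14:56085148-56085447, - strand): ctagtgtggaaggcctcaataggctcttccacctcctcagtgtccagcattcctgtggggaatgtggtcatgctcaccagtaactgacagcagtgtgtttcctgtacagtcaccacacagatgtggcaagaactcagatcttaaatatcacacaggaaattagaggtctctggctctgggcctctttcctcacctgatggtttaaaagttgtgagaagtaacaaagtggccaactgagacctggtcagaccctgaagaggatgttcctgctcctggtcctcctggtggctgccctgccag
Cpa3 (chr3:20242132-20242431, - strand): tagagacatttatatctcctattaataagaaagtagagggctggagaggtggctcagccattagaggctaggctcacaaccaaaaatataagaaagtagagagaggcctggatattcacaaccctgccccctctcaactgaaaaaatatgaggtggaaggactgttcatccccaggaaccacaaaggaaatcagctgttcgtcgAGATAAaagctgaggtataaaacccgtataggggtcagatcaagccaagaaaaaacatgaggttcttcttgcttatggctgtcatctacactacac
Fcer1a (chr1:173227180-173227479, - strand): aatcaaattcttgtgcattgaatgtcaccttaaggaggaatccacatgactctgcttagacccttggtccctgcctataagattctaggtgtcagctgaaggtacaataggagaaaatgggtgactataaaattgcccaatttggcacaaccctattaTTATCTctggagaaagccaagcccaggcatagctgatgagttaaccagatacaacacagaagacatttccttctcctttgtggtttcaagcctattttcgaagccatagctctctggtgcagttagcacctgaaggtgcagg
Ms4a2 (chr19:11623670-11623969, - strand): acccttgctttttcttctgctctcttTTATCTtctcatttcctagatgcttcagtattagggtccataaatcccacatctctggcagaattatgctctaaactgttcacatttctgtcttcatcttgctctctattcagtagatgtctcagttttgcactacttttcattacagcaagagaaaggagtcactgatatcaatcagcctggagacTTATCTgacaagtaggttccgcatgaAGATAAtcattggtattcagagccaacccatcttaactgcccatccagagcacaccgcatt
Il1rl1 (chr1:40429320-40429619, + strand): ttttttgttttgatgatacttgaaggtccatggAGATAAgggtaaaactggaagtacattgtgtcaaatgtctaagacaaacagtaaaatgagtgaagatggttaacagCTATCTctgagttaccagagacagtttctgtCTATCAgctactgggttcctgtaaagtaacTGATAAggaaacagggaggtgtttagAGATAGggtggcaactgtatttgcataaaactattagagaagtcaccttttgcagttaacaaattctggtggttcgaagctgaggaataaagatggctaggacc
A GATA word was found in 7 of the 9 windows (77.8%), where 29.8% of 32851 RefSeq promoter windows of the same length hold one. The first of the 2 Il1rl1 windows held 5 such words, the Ms4a2 window 3, and the windows of Cpa3, Prss34, Fcer1a and Hdc 1 each. In Cpa3, Prss34 and Ms4a2 a word began 46, 31 and 37 bases before the start. The windows of Mcpt8 and Fcer1g held none of these letters, which says nothing of the factor. The E-box word CATGTG or the E-box word spelled CACGTG was in 2 of the 9 windows (22.2%, against 20.4% of all windows) and the RUNX word TGTGGT in 5 (55.6%, against 16.8%). These matches are a description of the letters and are not evidence of binding.

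**Figure D1:**
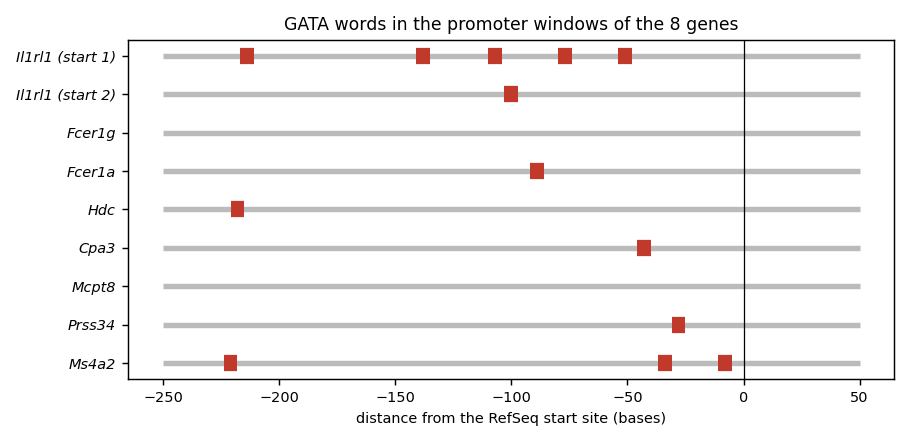
Position of the GATA words (red blocks) in the 9 promoter windows of the 8 genes, with the distance from the RefSeq start site in bases on the horizontal axis and 1 grey line per window. Il1rl1 start 1 holds 5 words and Ms4a2 holds 3, and the lines of Fcer1g and Mcpt8 are empty.

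To ask how the loss of Tespa1 and 5-FU bear on these genes, the genotypes were compared within each treatment and the treatments within each genotype by edgeR's quasi-likelihood test, and a gene was called at a Benjamini-Hochberg adjusted p below 0.05, over all genes tested, with a fold change above 1.5. After 5-FU, 7 of 8 members were called higher in Tespa1-/- LSKs and none lower, where 3.95% of the 17239 genes tested were called higher and 3.03% lower. Fcer1a is among the 7 but passed the count filter only through the Tespa1-/- libraries after 5-FU, so it had to differ. Of the 7 other members 6 were called, with Ms4a2 (log2 1.57) in the middle of their order. Prss34, with 8, 18 and 18 counts in Tespa1+/+ after 5-FU against a minimum of 10, also needed the Tespa1-/- libraries to pass. With at least 10 counts in every library, which removes both genes, 5 of 6 members were called. In untreated LSKs 1 of the 7 members tested was called higher and none lower, against 0.973% and 1.54% of all genes. The median log2 fold change over the members was 1.69 after 5-FU and 0.65 untreated, and over all genes it was -0.01 and 0.01.

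5-FU itself raised 3 of the 7 members tested in Tespa1+/+ LSKs (2.74% of all genes were called higher and 1.69% lower) and 7 of 8 in Tespa1-/- LSKs (6% and 4.07%), or 6 of 7 without Fcer1a. The interaction, the genotype effect after 5-FU minus that in untreated LSKs, was called positive for 3 of the 8 and negative for none (Fcer1a has no value there), against 1.66% and 1.55% of all genes. The comparisons share groups of libraries and are not independent of each other. By the study's own rule, an unadjusted P below 0.05 with the same fold change, 2 members were called untreated (6.74% of all genes), 8 after 5-FU between genotypes (11.7%), 4 and 7 by 5-FU in Tespa1+/+ and Tespa1-/- (9.88% and 14.4%), and 3 in the interaction (10.4%). Every Tespa1-/- library lay above every Tespa1+/+ library for 8 of 8 members after 5-FU, which held for 17.2% of all genes, and for 4 members untreated (Cpa3, Ms4a2, Hdc and Il1rl1), which held for 11.4%.

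**Figure D2:**
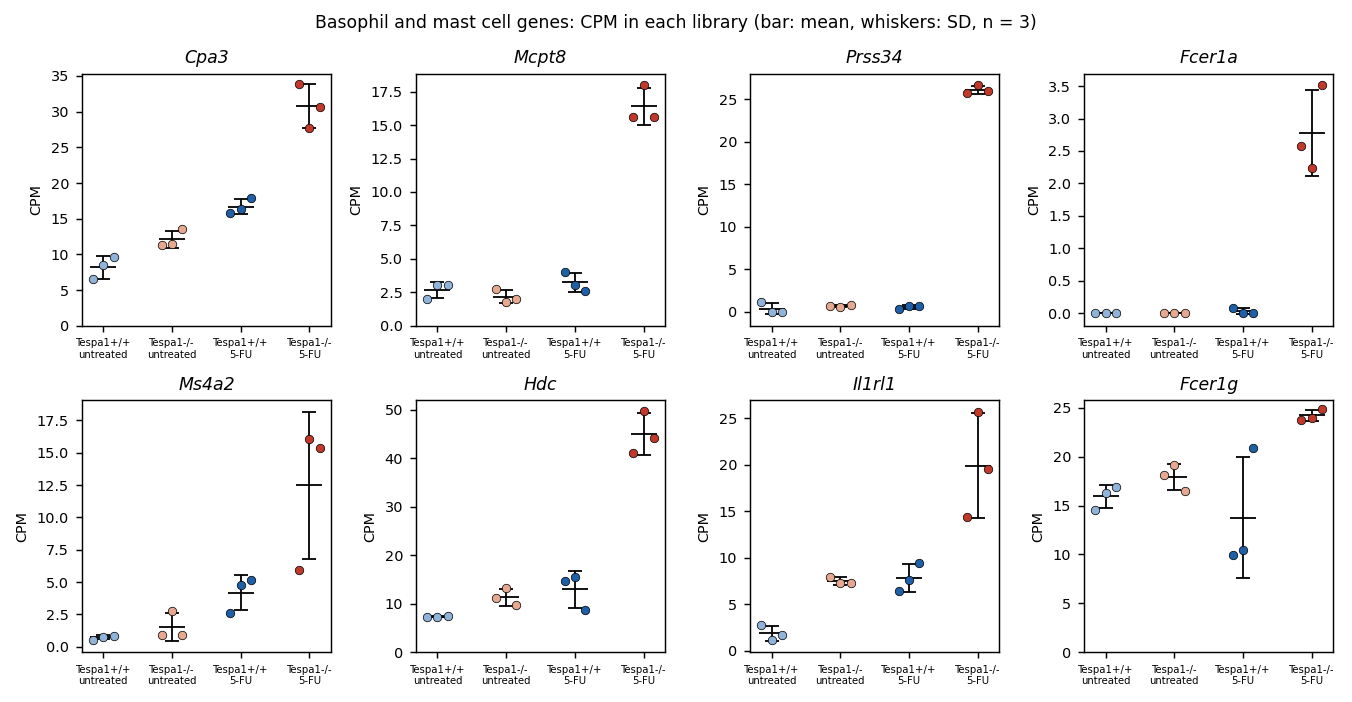
CPM of the 8 genes in each of the 12 libraries (points), by group, with the group mean (bar) and SD (whiskers, n = 3), each panel on its own axis. The 3 Tespa1-/- libraries after 5-FU are the highest of all 12 in every panel, with Prss34 at 25.7 to 26.6 CPM where the other 9 libraries hold 0 to 1.17.

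Prss34, which encodes a serine protease of basophils also known as mMCP-11, changed most among the members with reads in all 4 groups. In untreated Tespa1+/+ LSKs it was at 1.17, 0 and 0 CPM (32, 0 and 0 counts), and in untreated Tespa1-/- LSKs at 0.659, 0.621 and 0.83 CPM. After 5-FU it was at 0.311, 0.693 and 0.741 CPM in Tespa1+/+ and at 25.7, 26.6 and 26 CPM in Tespa1-/- libraries. The Tespa1-/- libraries after 5-FU were far above the 9 others, among which the 3 groups overlapped. The genotypes differed 44.6-fold after 5-FU (log2 fold change 5.48, SE 0.28, adjusted p = 4.11e-06), and 5-FU raised Prss34 36.7-fold in Tespa1-/- LSKs (log2 5.20, SE 0.18, adjusted p = 5.48e-07).

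Neither the genotype effect in untreated LSKs nor that of 5-FU in Tespa1+/+ passed the test for Prss34, with log2 fold changes of 0.83 (SE 1.31, adjusted p = 0.798) and 0.57 (SE 1.40, adjusted p = 0.866). Both values rest on the first untreated Tespa1+/+ library, the one with reads: without it they were 7 (adjusted p = 0.0583) and 6.82 (adjusted p = 0.114), fitted against 0 counts, and without the second or the third they were 0.27 and 0.01. The interaction was 4.73 on the log2 scale (SE 1.13, adjusted p = 0.0295), but it rests on few counts in the untreated libraries. The call was lost without any 1 of 8 libraries, each of the 3 untreated Tespa1-/-, the 3 Tespa1-/- after 5-FU and the first and second Tespa1+/+ after 5-FU, with adjusted p of 0.0559 to 0.0719. Without the first untreated Tespa1+/+ library the reference group held 0 counts and the fitted value turned to -1.61. The per-library values show the same gap between Tespa1-/- after 5-FU and every other group.

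Mcpt8, the basophil granule protease mMCP-8 by which mouse basophils are often traced, was likewise highest in Tespa1-/- LSKs after 5-FU. It was at 2.01, 3.07 and 3.03 CPM in untreated Tespa1+/+ and at 2.72, 1.77 and 2.01 CPM in untreated Tespa1-/- LSKs. With 5-FU it was at 4.04, 3.04 and 2.63 CPM in Tespa1+/+ and at 15.6, 18 and 15.6 CPM in Tespa1-/-. The first 3 groups overlapped and the last lay above all of them. Mcpt8 was 5.05-fold higher in Tespa1-/- than in Tespa1+/+ LSKs after 5-FU (log2 2.34, SE 0.22, adjusted p = 0.000174), whereas in untreated LSKs the log2 fold change was -0.30 (SE 0.33, adjusted p = 0.697). 5-FU raised it 7.52-fold in Tespa1-/- (log2 2.91, SE 0.21, adjusted p = 2.97e-05) and its change in Tespa1+/+ did not pass the test (log2 0.28, SE 0.35, adjusted p = 0.716). The difference between the genotype effects with and without 5-FU was 2.64 on the log2 scale (adjusted p = 0.000814).

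Cpa3, the carboxypeptidase of mast cell granules that is also expressed by basophils and by early progenitors, moved in steps. It was at 6.49, 8.5 and 9.63 CPM in untreated Tespa1+/+ and at 11.3, 11.5 and 13.5 CPM in untreated Tespa1-/- LSKs. It was at 15.8, 16.4 and 17.9 CPM in Tespa1+/+ and at 33.9, 27.7 and 30.7 CPM in Tespa1-/- after 5-FU. None of the 4 groups overlapped with another. 5-FU raised Cpa3 in both genotypes, 2.06-fold in Tespa1+/+ (log2 1.04, SE 0.20, adjusted p = 0.0136) and 2.54-fold in Tespa1-/- (log2 1.34, SE 0.13, adjusted p = 0.000183). The first of these calls was lost without the second or the third Tespa1+/+ library after 5-FU (adjusted p = 0.0518 and 0.0557). The genotypes differed 1.84-fold after 5-FU (log2 0.88, SE 0.13, adjusted p = 0.00244), and by a log2 fold change of 0.57 untreated, which did not pass (SE 0.20, adjusted p = 0.16). The 2 genotype effects on Cpa3 were not shown to differ (interaction 0.31, SE 0.23, adjusted p = 0.524).

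Fcer1a, which encodes the IgE-binding alpha chain, was detected in 1 group. Its reads were 0 in all 6 untreated libraries, where a count of 0 allows up to 0.109 to 0.136 CPM, and 2, 0 and 0 in Tespa1+/+ after 5-FU. The 3 Tespa1-/- libraries after 5-FU held 71, 58 and 78 counts, or 2.58, 2.23 and 3.51 CPM. These were the 3 libraries of 12 with over 3 counts of Fcer1a. After 5-FU the summed counts, 207 against 2, gave a ratio of 104 between the genotypes with an exact 95% counting interval of 28.4 to 863. Against the detection limit Fcer1a was at least 21-fold higher in Tespa1-/- LSKs after 5-FU than untreated. It passed the count filter only through this group, so no p is given for these 2 comparisons. It did not reach the count filter in the comparison of untreated genotypes or of 5-FU in Tespa1+/+, where a two-sided exact permutation test gave p = 1 each, and 0.1 is the smallest p that 3 libraries against 3 allow. With no counts in the untreated groups its interaction has no value.

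Ms4a2, the beta chain, was already present without treatment and rose with 5-FU in both genotypes. It was at 0.547, 0.757 and 0.859 CPM in untreated Tespa1+/+ and at 0.922, 2.79 and 0.918 CPM in untreated Tespa1-/- LSKs. After 5-FU it was at 2.64, 4.77 and 5.14 CPM in Tespa1+/+ and at 5.91, 16.1 and 15.4 CPM in Tespa1-/-. The second untreated and the first 5-FU-treated Tespa1-/- libraries stood away from their groups, the former high and the latter low. The rise was 5.85-fold in Tespa1+/+ (log2 2.55, SE 0.44, adjusted p = 0.00757) and 8.04-fold in Tespa1-/- (log2 3.01, SE 0.52, adjusted p = 0.00422).

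The genotype difference of Ms4a2 after 5-FU was 2.98-fold (log2 1.57, SE 0.40, adjusted p = 0.0308), and it was the least stable of the 7 calls: it was lost without any 1 of the 3 Tespa1+/+ libraries or without the second or the third Tespa1-/- library, with adjusted p of 0.0588 to 0.112. In untreated LSKs the log2 fold change was 1.11 (SE 0.58, adjusted p = 0.367) and the interaction 0.46 (SE 0.70, adjusted p = 0.796). Of the 50-base words in Ms4a2 transcripts 2.1% also occur in its relative Ms4a4b, so a small share of its reads could be split between the genes.

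Fcer1g, the gamma chain, is shared with other Fc receptors and is expressed throughout the myeloid lineages. It was at 14.6, 16.3 and 16.9 CPM in untreated Tespa1+/+ and at 18.1, 19.2 and 16.5 CPM in untreated Tespa1-/- LSKs. Its level after 5-FU was 9.92, 10.5 and 20.9 CPM in Tespa1+/+ and 23.8, 24 and 24.9 CPM in Tespa1-/-. The third Tespa1+/+ library after 5-FU was well above the other two, and the Tespa1-/- libraries lay above all 3. Fcer1g was the member that was not called between genotypes after 5-FU (log2 0.81, SE 0.27, adjusted p = 0.0787), and without the third library it was (log2 1.24, adjusted p = 0.00272). In Tespa1-/- LSKs 5-FU changed it 1.35-fold (log2 0.43, SE 0.11, adjusted p = 0.0266), under the fold threshold, and in Tespa1+/+ its log2 fold change was -0.19 (adjusted p = 0.763). Untreated, the log2 fold change between genotypes was 0.18 (SE 0.13, adjusted p = 0.533). The interaction was 0.64 (SE 0.33, adjusted p = 0.327), and 1.05 (adjusted p = 0.0101) without the third Tespa1+/+ library after 5-FU.

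Hdc encodes histidine decarboxylase, which makes histamine. Its level was 7.3, 7.25 and 7.42 CPM in untreated Tespa1+/+ and 11.2, 13.2 and 9.7 CPM in untreated Tespa1-/- LSKs. With 5-FU its level was 14.7, 15.5 and 8.6 CPM in Tespa1+/+ and 41.1, 49.8 and 44.1 CPM in Tespa1-/-. The untreated groups did not overlap, Tespa1+/+ after 5-FU spread across the range of untreated Tespa1-/-, and Tespa1-/- after 5-FU was above all others. Hdc was 3.48-fold higher in Tespa1-/- after 5-FU (log2 1.8, SE 0.21, adjusted p = 0.000595), and 5-FU raised it 3.95-fold in Tespa1-/- (log2 1.98, SE 0.14, adjusted p = 2.69e-05).

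The smaller differences of Hdc did not pass the adjusted threshold, at log2 0.65 between untreated genotypes (SE 0.17, adjusted p = 0.0782) and log2 0.84 for 5-FU in Tespa1+/+ (SE 0.25, adjusted p = 0.0765). The latter passed without the third Tespa1+/+ library after 5-FU, the low one (adjusted p = 0.0239). The interaction was 1.16 (SE 0.28, adjusted p = 0.0319), and it was lost when any of 8 libraries was left out: the 3 untreated Tespa1+/+, the first and the third untreated Tespa1-/-, and the 3 Tespa1-/- after 5-FU (adjusted p 0.0515 to 0.0891).

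Il1rl1, which encodes ST2, the receptor through which IL-33 acts on mast cells, basophils and other cells, was the member called between genotypes without 5-FU. It was at 2.7, 1.16 and 1.67 CPM in untreated Tespa1+/+ and at 7.95, 7.23 and 7.25 CPM in untreated Tespa1-/- LSKs. After 5-FU it was at 6.38, 7.58 and 9.38 CPM in Tespa1+/+ and at 14.4, 25.7 and 19.6 CPM in Tespa1-/-. Untreated Tespa1-/- and 5-FU-treated Tespa1+/+ libraries overlapped and lay between the other groups. Il1rl1 was 4.07-fold higher in untreated Tespa1-/- LSKs (log2 2.02, SE 0.31, adjusted p = 0.00836), and the call held in each of the 16 alternative analyses, those without 1 library included. After 5-FU the genotypes differed 2.56-fold (log2 1.35, SE 0.24, adjusted p = 0.00633).

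5-FU raised Il1rl1 4.25-fold in Tespa1+/+ (log2 2.09, SE 0.35, adjusted p = 0.00719) and 2.65-fold in Tespa1-/- (log2 1.41, SE 0.22, adjusted p = 0.00225). Its interaction was the 1 negative value among the members and did not pass (-0.66, SE 0.40, adjusted p = 0.419). Gene-level counts do not separate the membrane form of ST2 from its secreted form, which share most coding exons.

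**Figure D3:**
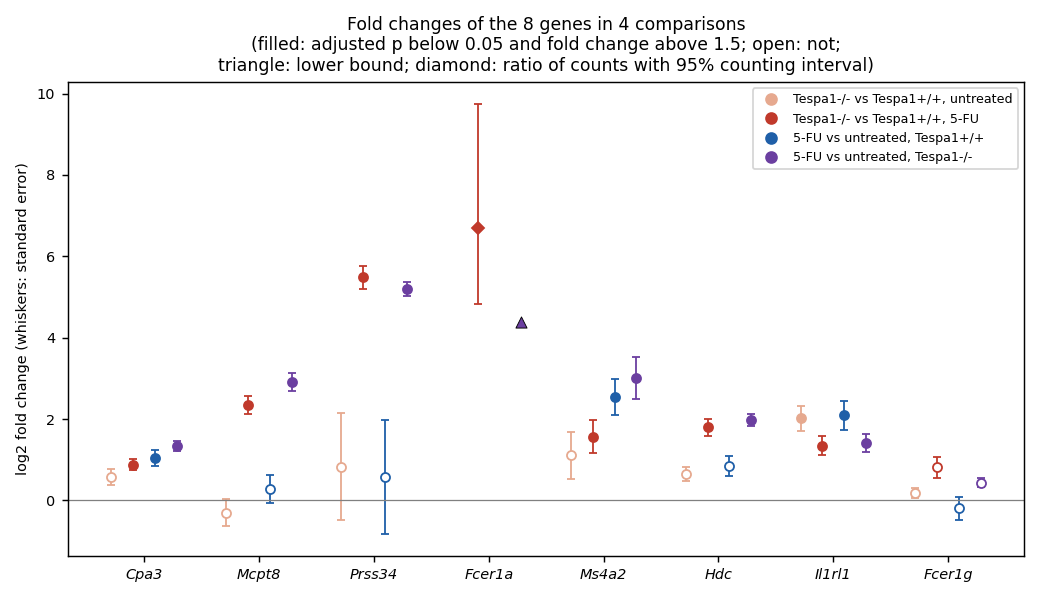
Log2 fold changes of the 8 genes (points, whiskers are standard errors of the fit) in the 4 comparisons, filled where the adjusted p was below 0.05 and the fold change above 1.5, with a triangle for a lower bound and a diamond for a ratio of counts (whiskers, 95% counting interval) of Fcer1a. Prss34 and Mcpt8 show filled points in the comparisons that include Tespa1-/- after 5-FU and open points in the other comparisons, whereas Il1rl1 is filled in all 4.

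Levels of different genes were compared as FPKM, reads scaled to gene length and library size. In Tespa1-/- LSKs after 5-FU the order of mean FPKM was Prss34 (21.5 ± 0.352, SD, n = 3), Cpa3 (20.4 ± 2.07), Fcer1g (15.2 ± 0.394), Mcpt8 (11.8 ± 0.974), Hdc (6.02 ± 0.579), Ms4a2 (2.79 ± 1.27), and Fcer1a (1.8 ± 0.431) with Il1rl1 (1.8 ± 0.511). The first pair in this order did not differ beyond its spread, nor did the last 3 genes. In Tespa1+/+ LSKs after 5-FU Cpa3 led by mean (11.3 ± 0.78), then Fcer1g (8.8 ± 3.98), Mcpt8 (2.38 ± 0.523) and Hdc (1.76 ± 0.512), and Prss34 was at 0.49 ± 0.2 FPKM, seventh of the 8. The values of Cpa3 and Fcer1g overlapped in these libraries, as did those of Mcpt8 and Hdc and those of Prss34 and Il1rl1.

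The order depends on the length that the authors used. For Fcer1g this length was 1605 bases where its GENCODE M21 exons sum to 874, and with M21 exon lengths Fcer1g was at 27.9 in Tespa1-/- and 16.2 in Tespa1+/+ LSKs after 5-FU, first in both. Cpa3 and Prss34 had nearly equal lengths in both sources. This alternative was chosen after the data were seen.

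In GRCm38 the genes lie on 6 chromosomes, as the deposited table gives them. On chromosome 1 lie Il1rl1 (ENSMUSG00000026069) from 40429570 to 40465415, Fcer1g (ENSMUSG00000058715) from 171229572 to 171234365 and Fcer1a (ENSMUSG00000005339) from 173221284 to 173227214. On chromosome 2 lies Hdc (ENSMUSG00000027360) from 126593667 to 126619299, on chromosome 3 Cpa3 (ENSMUSG00000001865) from 20215620 to 20242181 and on chromosome 14 Mcpt8 (ENSMUSG00000022157) from 56082166 to 56085273. On chromosome 17 lies Prss34 (ENSMUSG00000056399) from 25298394 to 25300161 and on chromosome 19 Ms4a2 (ENSMUSG00000024680) from 11615523 to 11623719. Their counts cover whole genes, and no exon of another annotated gene overlaps theirs.

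Among genes that complete the granules of mature mast cells, several were higher with 5-FU than untreated in both genotypes. Of 15 such genes, 7 could be tested after 5-FU, 0 were called between genotypes by edgeR or by DESeq2 and 2, both lower, by the study's rule, and their median log2 fold change was -0.70. The count called lower was 1 without the third Tespa1+/+ library, with a minimum of 10 counts in every library and with no fold threshold. 5-FU raised 4 of 7 in Tespa1+/+ and 5 of 7 in Tespa1-/- LSKs, and 3 or 4 and 4 or 5 with 1 library left out (2.74% and 6% of all genes were called higher). Cma1, Tpsb2 and Mcpt4 are among these through the libraries after 5-FU, which alone carried them past the count filter, so they had to differ. With a minimum of 10 counts in every library 4 genes were tested, of which 5-FU raised 1 in Tespa1+/+ and 2 in Tespa1-/-. The chymase Cma1 had 0 counts in all 6 untreated libraries. After 5-FU it was at 4.43, 2.46 and 0.864 CPM in Tespa1+/+ and at 1.52, 1.08 and 2.75 CPM in Tespa1-/-, which overlapped (log2 -0.54, SE 0.60, adjusted p = 0.631). It was at least 20.5-fold higher with 5-FU than untreated in Tespa1+/+ and at least 13.5-fold in Tespa1-/-.

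Slc18a2, the vesicular transporter that loads histamine and other amines, was raised by 5-FU 3.48-fold in Tespa1+/+ (10.5 ± 1.47 to 36.1 ± 2.8 CPM, SD, n = 3, adjusted p = 0.000172) and 2.38-fold in Tespa1-/- (11.1 ± 2.21 to 26.6 ± 1.15 CPM, adjusted p = 0.000848). Between genotypes after 5-FU it was 1.36-fold lower in Tespa1-/- (log2 -0.44, SE 0.11, adjusted p = 0.0305), under the fold threshold. The chymase Mcpt4 and the tryptase Tpsb2, named after their values were seen, were likewise at or near 0 untreated. After 5-FU Mcpt4 was at 1.91, 1.89 and 2.76 CPM in Tespa1+/+ and at 0.653, 2.16 and 1.22 CPM in Tespa1-/- (log2 -0.70, SE 0.51, adjusted p = 0.439). Tpsb2 was at 1.59, 2.85 and 1.65 against 0.435, 0.809 and 1.04 CPM (log2 -1.42, SE 0.54, adjusted p = 0.124). With under 3 CPM in most libraries these genes set no narrow limit on a difference, and their point estimates lay on the other side of 0 from those of Prss34 and Mcpt8.

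Of 11 other basophil genes and eicosanoid enzymes, 8 could be tested between genotypes after 5-FU, of which 3 were higher in Tespa1-/- and 1 was lower, against 3.95% and 3.03% of all genes. The median log2 fold change of the list was 0.02. Below 0 lay Hgf (-0.69) and, named after their values were seen and not called, Ltc4s (-0.93), Cd200r4 (-0.51) and Ptger3 (-0.20). The rest lay above 0, with Alox5ap (0.24) not called. Cd200r3, a receptor of basophils and mast cells, was at 1.09, 1.04 and 0.494 CPM in Tespa1+/+ and at 2.25, 4.55 and 2.43 CPM in Tespa1-/- (3.50-fold, adjusted p = 0.04). Cyp11a1, which starts steroid synthesis, was at 0.739, 2.73 and 1.03 against 5.37, 4.97 and 4.05 CPM (3.19-fold, adjusted p = 0.049). Alox5, the enzyme that begins leukotriene synthesis, was at 6.3, 7.39 and 6.09 against 15.2, 15.3 and 17.8 CPM (2.44-fold, adjusted p = 0.00156), and Hgf fell from 28.7 ± 4.3 to 17.7 ± 0.132 CPM (SD, n = 3, adjusted p = 0.0124). With any 1 library left out, 1 or 2 of the list were called higher in place of 3, and in the fit of all 12 libraries 0 were. Hgf was not called lower without the third Tespa1+/+ library. Alox5 was named for its rise with 5-FU in Tespa1-/- LSKs (8.09-fold, adjusted p = 1.05e-05), and it is also a gene of neutrophils and monocytes.

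**Figure D4:**
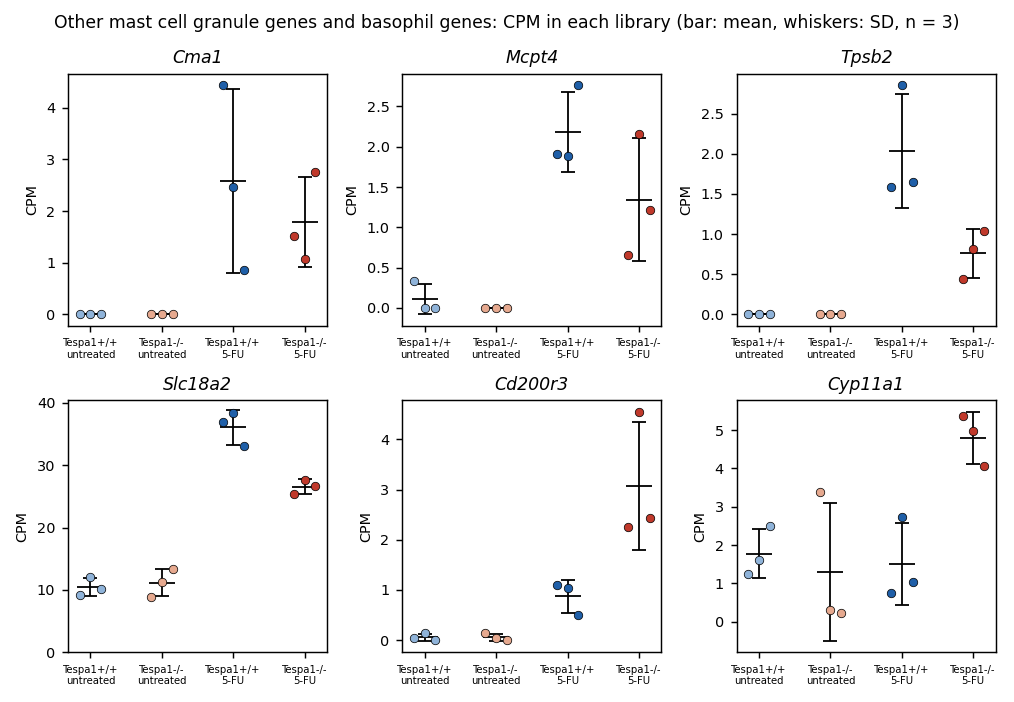
CPM of 4 other mast cell granule genes (Cma1, Mcpt4, Tpsb2, Slc18a2) and 2 other basophil genes (Cd200r3, Cyp11a1) in each library (points), by group, with the mean (bar) and SD (whiskers, n = 3). The 4 granule genes are higher with 5-FU than untreated in both genotypes, after 5-FU their means are lower in Tespa1-/- than in Tespa1+/+, a difference not called for any of them, and Cd200r3 and Cyp11a1 are highest in Tespa1-/- after 5-FU. Genes of the basophil list with lower means in Tespa1-/- after 5-FU, such as Hgf and Ltc4s, are not drawn.

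Of 20 genes for signalling proteins downstream of the IgE receptor, 1 was called between genotypes after 5-FU, Prkcb, a protein kinase C (22.8 ± 1.67 to 38.1 ± 3.13 CPM, SD, n = 3, 1.67-fold, adjusted p = 0.00333). This is near the share over all genes, 3.95% higher, and in the fit of all 12 libraries 0 of the 20 were called. The median log2 fold change of the list was -0.06 after 5-FU. Among 7 receptors that use or oppose the gamma chain, 5 could be tested and Fcgr3, the low-affinity IgG receptor of myeloid cells and basophils, was higher, at 12.2, 8.51 and 10.8 CPM in Tespa1+/+ and 41.6, 27.9 and 41.3 CPM in Tespa1-/- after 5-FU (3.52-fold, adjusted p = 0.000441). Without the third Tespa1+/+ library 2 of the 5 were called.

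Of 17 transcription factors of the lineage, 3 were higher and 1 was lower in Tespa1-/- LSKs after 5-FU, where 3.95% and 3.03% of all genes were. Gata1, whose product acts in the basophil, mast cell, eosinophil and erythroid lineages, rose from 19.1 ± 5.27 to 37.2 ± 4.27 CPM (SD, n = 3, 1.95-fold, adjusted p = 0.0103), and Cebpa, a factor of granulocyte progenitors, from 58.2 ± 9.8 to 92.3 ± 12.8 CPM (1.59-fold, adjusted p = 0.0114). Hes1, a Notch target, fell by 0.88 on the log2 scale (adjusted p = 0.00541). Without the second Tespa1-/- library 1 of the 17 was called higher. Gata2, at 166 ± 18.3 and 149 ± 32.7 CPM, was not called (log2 -0.15, SE 0.14, adjusted p = 0.553), whereas 5-FU raised it 2.20-fold in Tespa1+/+ LSKs (adjusted p = 0.000151) and 1.52-fold in Tespa1-/- LSKs (adjusted p = 0.0227).

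Of 14 growth and cytokine receptors, 1 was higher and 1 lower between genotypes after 5-FU, near the shares over all genes (3.95% and 3.03%). Csf2ra, the alpha chain of the GM-CSF receptor, rose from 22.8 ± 2.27 to 52.3 ± 1.77 CPM (SD, n = 3, 2.29-fold, adjusted p = 0.000155), and Il1r1, an IL-1 receptor, fell by 0.96 on the log2 scale (adjusted p = 0.000671). Il3ra, which binds the basophil growth factor IL-3 and was named after its values were seen, was at 18 ± 3.33 and 17.1 ± 2.81 CPM (adjusted p = 0.852). In untreated LSKs Il1r2, the decoy receptor of IL-1, had a log2 fold change of -1.86 between genotypes (adjusted p = 0.00659).

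Markers of other maturing cells moved in the same libraries as the 8 genes. Over all genes 3.95% were called higher between genotypes after 5-FU and 3.03% lower. There, 7 of 9 eosinophil genes were higher and their summed level was 660 to 699 CPM against 5.33 to 7.2, with Epx and Prg2, the granule proteins that define eosinophils, at 185 to 211 and 383 to 399 CPM and, in Tespa1+/+, at 0 to 0.156 and 0 to 0.544. Epx, Prg2, Prg3, Ear1, Ear2 and Ear6, at means of 0 to 0.181 CPM in Tespa1+/+, passed the count filter only through Tespa1-/- and had to differ. Over the alternative fits 1 to 7 of the list were called higher. Of 10 neutrophil genes 9 were higher, and 2 to 9 over the alternative fits. Among the 9, Camp, Retnlg and Mmp9, at means of 0 to 0.194 CPM in Tespa1+/+, passed the count filter only through Tespa1-/- and had to differ. All 9 erythroid genes were higher (7 to 9 over the alternative fits), at a sum of 376 to 396 against 42.1 to 56.4 CPM. The 8 basophil and mast cell genes summed to 163 to 190 against 53.9 to 65.4 CPM. Of 8 LSK genes 4 were lower, at a sum of 744 to 783 against 1200 to 1230 CPM. Eosinophils also express Il1rl1, Fcer1g and Alox5, and the part of these cell types in the result was not tested.

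For the other classes of cells the sums differed less after 5-FU. There, 1 of 6 monocyte genes was higher in Tespa1-/- (sum 429 to 445 against 310 to 318 CPM), 1 of 6 megakaryocyte genes was lower (266 to 284 against 212 to 229), 2 of 7 T cell and ILC2 genes were higher and 1 lower (37.4 to 47.3 against 53.1 to 61) and the 6 B cell genes summed to 261 to 291 against 248 to 255 CPM. Over all genes 3.95% were called higher and 3.03% lower. Cd3e, 1 of the 2 T cell and ILC2 genes called higher, was at 0 CPM in Tespa1+/+ after 5-FU, so it passed the count filter only through Tespa1-/- and had to differ. Over the alternative fits 0 to 3 of that list were called higher and 0 to 1 lower. In untreated LSKs, where Il1rl1 was called, the sums of all 8 marker lists besides that of the basophil and mast cell genes did not overlap between genotypes. Nor did the sum of the basophil and mast cell genes, at 50.7 to 56.3 CPM in Tespa1-/- against 34.8 to 39.5. The neutrophil sum was 6.94 to 8.04 CPM in Tespa1-/- against 2.53 to 2.67, the eosinophil sum 8.51 to 9.96 against 3.76 to 7.48, the erythroid sum 41.8 to 52.1 against 20.7 to 26.3, the monocyte sum 386 to 412 against 248 to 293 and the megakaryocyte sum 95.4 to 107 against 82.5 to 88.7. Lower in Tespa1-/- were the sums of the LSK genes (1260 to 1300 against 1500 to 1580 CPM), the B cell genes (34 to 41.3 against 58.2 to 66.8) and the T cell and ILC2 genes (31.2 to 35.6 against 47.2 to 50.9). Their part in the difference of Il1rl1 was not tested.

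**Figure D5:**
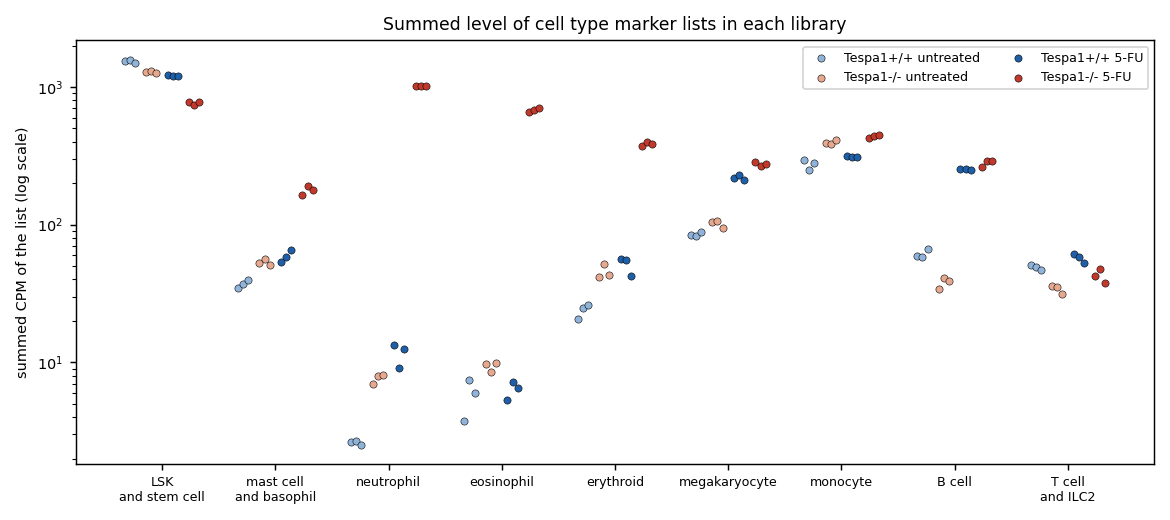
Summed CPM of 9 lists of cell type marker genes in each of the 12 libraries (points, log scale), coloured by group. The neutrophil, eosinophil and erythroid lists lie highest in Tespa1-/- after 5-FU, as does the list of the 8 basophil and mast cell genes at 163 to 190 CPM, and the LSK list lies lowest there.

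Each member with a mean of at least 1 CPM was set against 14934 genes by the root mean square difference of log2(CPM + 1) over the 12 libraries, each profile centred on its own mean. The profile of Prss34 was most like those of Ear1 (0.35), Slfn4 (0.35) and Ear6 (0.39), of which Ear1 and Ear6 encode ribonucleases of eosinophil granules. With a pseudocount of 0.1 in place of 1 neither Ear1 nor Ear6 was among the 3 nearest, and Slfn4 was. Ear1 went from 0 to 15.5 ± 3.64 CPM between genotypes after 5-FU. Nearest to Mcpt8 were Igha (0.21), Ncam1 (0.24) and Pilra (0.26). For Hdc they were Ttc21a (0.18), Myo1d (0.23) and Elane (0.23), the neutrophil elastase gene, at 143 ± 1.8 and 469 ± 20 CPM in the 2 genotypes after 5-FU.

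The stepwise profile of Cpa3 was nearest to Dio2 (0.14), Sept8 (0.21) and Arap3 (0.22), and Dio2 stood at 7.63, 12, 15.7 and 28 mean CPM over untreated Tespa1+/+, untreated Tespa1-/-, Tespa1+/+ after 5-FU and Tespa1-/- after 5-FU. Nearest to Il1rl1 were Aqp1 (0.31), Xdh (0.36) and Abcb4 (0.38), and to Ms4a2 Gm15915 (0.40), Gda (0.44) and Sema4a (0.44). Fcer1g was nearest to Poc1a (0.14), Coasy (0.17) and Cdca3 (0.18). No member was among the 3 nearest genes of another. With the smaller pseudocount 13 of these 21 neighbours were again among the nearest 3.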

How the data were processed

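RNA-seq libraries of LSKs were analysed, 3 in each of 4 groups, grouped by their labels. The authors deposited counts of reads per gene for 53465 genes without normalization, with 22118154 to 28275079 counts per library (median 23401715). The FPKM values they also deposited follow from these counts through gene length and library size, and were used here only to compare levels between genes. Per the labels, poly-A libraries were made with a stranded kit and read from both ends. The submitters' processing notes name CASAVA 1.8, HISAT2, StringTie, edgeR and GRCm38. Which tool counted the reads, and whether it used strand, is not given in the sources used here. Every sample column of the table matched 1 sample.

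Counts were scaled by TMM factors to CPM and tested in R 4.3.3 with edgeR 4.0.16 (filterByExpr with a minimum count of 10, glmQLFit and glmQLFTest) on the 6 libraries of a comparison, or all 12 for the interaction, with p-values adjusted by Benjamini-Hochberg over all genes tested. Where a group had no counts, the fold change is a lower bound against the limit of 3 counts per library. The median chi-square per gene between replicates was 2.08 to 5.87, and sampling alone would give 0.45. Alternatives were DESeq2 1.42.0, RLE size factors, no TMM, no filter, a replicate block, a minimum of 10 counts throughout, a joint fit of all 12 libraries, each library left out, no fold threshold, a fold change above 2 and the study's rule. Exons and positions came from GENCODE M21 and promoters from RefSeq. Figures were drawn with matplotlib 3.10.9 in Python 3.11.

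The 8 genes and all gene lists were chosen with earlier results of these data known. Named genes were the 8, the 3 nearest profiles of each, and of each lineage list at most the 2 largest called rises and falls per comparison among genes with a mean of at least 1 CPM; others are marked.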

Additional observations from a re-analysis of the deposited data

Results flagged for a closer look

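The effect of genotype differed between treatments for 3 of the 8 genes, by edgeR's test of the interaction over the 12 libraries, where 1.66% of all genes tested were called positive and 1.55% negative. On the log2 scale the genotype effect after 5-FU exceeded that in untreated LSKs by 2.64 for Mcpt8 (adjusted p = 0.000814), by 4.73 for Prss34 (adjusted p = 0.0295) and by 1.16 for Hdc (adjusted p = 0.0319). In each of the 3 genes every Tespa1-/- library after 5-FU was above every other library. For Mcpt8 the call held without any 1 library. For Prss34 and Hdc it did not, as described with their values. With 3 libraries in a group, no formal test for an outlying library was run.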

How the results depend on the processing

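Of the recomputed values of single members, 582 kept their direction and their side of the threshold, 26 lost a call, 12 gained one and 1 reversed. The reversed value was the interaction of Prss34, -1.61 without the first untreated Tespa1+/+ library, where the remaining libraries of that group held 0 counts, and with single libraries left out it ranged from -1.61 to 5.27. The count of members called between untreated genotypes was 2 by DESeq2 and 2 by the study's rule, with Hdc beside Il1rl1, and 1 with any library left out. With single libraries left out the count ranged from 6 to 7 between genotypes after 5-FU, from 2 to 3 for 5-FU in Tespa1+/+, stayed at 7 in Tespa1-/- and ranged from 1 to 4 for the interaction. By the other alternatives it was 5 to 8, 3 to 4, 6 to 8 and 2 to 3. DESeq2 and the fit of all 12 libraries called Fcer1g between genotypes after 5-FU, and a fold change above 2 left out Cpa3. With the replicate block the interaction of Prss34 was 4.56 (adjusted p = 0.0679), the block changed no other call of a member, and it lowered the called basophil genes between genotypes after 5-FU from 3 to 1. Libraries with the same number did not deviate together (correlations of -0.05 to 0.03, and 9 of 36 were highest with their own number). No pairing by number was seen, which cannot exclude one of small effect, and the labels give none. The filter of 10 counts in every library removes Fcer1a from every comparison and Prss34 from all but that of 5-FU in Tespa1-/-. At or under 3 counts a difference cannot be seen, which limits Fcer1a in the 9 libraries outside Tespa1-/- after 5-FU and Prss34 in the second and the third untreated Tespa1+/+ libraries.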
